A study of Mus musculus with 38 samples.

Results

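The 9 genes Mbp, Mog, Mag, Mobp, Cnp, Cldn11, Mal, Opalin and Ugt8a are genes of myelin and of the oligodendrocytes that make it. They were chosen by name, as myelin and oligodendrocyte genes, and found by their Ensembl identifiers among the 48709 genes of the count files. All 9 were present and all 9 passed the filter on low counts, as did 18232 genes over all mice. They were followed through the hippocampus of 38 mice, with the question of how far their levels differed between genotypes and chows, how far they differed between mice of the same group, and which other genes differed along with them.

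Myelin is the stack of glial membrane that insulates axons and speeds the nerve impulse. In the brain it is made by oligodendrocytes, which arise from precursor cells that switch on the transcription factors SOX10 and MYRF, then the structural proteins of the sheath and the enzymes of its galactolipids. In the hippocampus myelin is concentrated in the fiber tracts that border and cross the grey matter, such as the alveus, the fimbria and the perforant path.

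RNA was sequenced from unsorted hippocampal tissue of mice on a C57BL/6 background, and which extent of the hippocampus was dissected is not given in the sources used here. APPPS1ΔE9 mice carry transgenes for mutant amyloid precursor protein and presenilin 1 and are a model of amyloid pathology, and wild-type (WT) littermates were the controls. Mice of the pre-plaque group ate chow with anle138b, at 2 g per kg of food, or placebo chow without it from 2 to 6 months of age, and were analyzed at 6 months, with 4 mice for each chow in each genotype. Mice of the post-plaque group ate these chows from 6 to 10 months of age and were analyzed at 10 months, with 5 WT mice on each chow, 5 APPPS1ΔE9 mice on placebo and 7 on anle138b.

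Total counts were between 15847985 and 31895808 per mouse, with a median of 24530658. App, the gene of amyloid precursor protein, was at 3274 to 4286 CPM (read counts scaled to a common library size) in the 20 mice with an APPPS1ΔE9 title and at 1522 to 1799 CPM in the 18 mice with a WT title. A second label of 4 placebo-treated WT libraries at 6 months gave the transgenic genotype (APPdelta9), and the title was followed. The methods describe all mice as male, while the summed level of 4 Y-linked genes was under 10 CPM in 12 mice, 11 of them WT. Xist, the RNA of the inactive X chromosome of females, was at 1154 to 1453 CPM in these 12 mice. In all other mice it was at 0.27 to 5.41 CPM. By these genes the 12 mice were female, so the sexes were not balanced between the genotypes. Nothing in the labels says how the mice of a group are related, so the p-values below measure the spread between these libraries.

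Mbp, myelin basic protein, holds the cytoplasmic faces of the sheath together. Mobp, myelin-associated oligodendrocyte basic protein, is a second small basic protein of compact myelin. Cnp, a phosphodiesterase, lies in the non-compact cytoplasmic channels. Mog and Mag are immunoglobulin-type membrane proteins, the first on the outer surface of the sheath and the second on the side that faces the axon. Cldn11 forms the tight junctions between the layers, and Mal is a proteolipid that carries membrane to the sheath. Opalin is a membrane protein of mature oligodendrocytes, and Ugt8a is the enzyme that adds galactose to ceramide to make the main galactolipid of myelin. Scaled by the length of the exons, Mbp had the highest level, with a median over the 10-month mice of 287 CPM per kb, followed by Mobp (120), Cnp (84.1), Mal (75.7), Cldn11 (58.8), Mag (40.8), Mog (32.3), Ugt8a (10.5) and Opalin (8.15).

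The 250 bases before the start of the gene are shown for 4 of the genes because the transcription factors SOX10 and MYRF, described below, were among the genes that moved with them. The sequences are from the RefSeq promoter table for GRCm38.p6, which matched 8 of the 9 genes. Capitals mark ACAAAG, the core of sites bound by SOX proteins, and CTGGCAC, a core bound by MYRF, on either strand (reverse complements CTTTGT and GTGCCAG). These 4 were chosen after their letters were seen, as the ones that hold a match. Mobp is at chr9:120149492-120149741 on the plus strand, Opalin at chr19:41077114-41077363 on the minus strand, Mag at chr7:30914864-30915113 on the minus strand, and Cnp at chr11:100574689-100574938 on the plus strand.
Mobp: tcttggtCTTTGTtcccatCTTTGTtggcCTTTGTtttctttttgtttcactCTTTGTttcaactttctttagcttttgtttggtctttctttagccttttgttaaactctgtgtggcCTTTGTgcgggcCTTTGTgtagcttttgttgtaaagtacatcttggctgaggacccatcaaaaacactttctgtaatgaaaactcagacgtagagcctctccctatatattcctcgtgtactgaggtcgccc
Opalin: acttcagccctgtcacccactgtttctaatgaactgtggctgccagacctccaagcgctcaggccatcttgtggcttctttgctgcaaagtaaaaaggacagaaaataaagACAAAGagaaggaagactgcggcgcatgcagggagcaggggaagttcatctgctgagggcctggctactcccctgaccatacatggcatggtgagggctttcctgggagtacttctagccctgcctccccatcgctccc
Mag: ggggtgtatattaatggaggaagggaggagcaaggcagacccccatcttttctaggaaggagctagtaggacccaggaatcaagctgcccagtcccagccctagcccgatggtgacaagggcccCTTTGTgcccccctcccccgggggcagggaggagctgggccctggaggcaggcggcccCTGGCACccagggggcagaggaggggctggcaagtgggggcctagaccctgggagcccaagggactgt
Cnp: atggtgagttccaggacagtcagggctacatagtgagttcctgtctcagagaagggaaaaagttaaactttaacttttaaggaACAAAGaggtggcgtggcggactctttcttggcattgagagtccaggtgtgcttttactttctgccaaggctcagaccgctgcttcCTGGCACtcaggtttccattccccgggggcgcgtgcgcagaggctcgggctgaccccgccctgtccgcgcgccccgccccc

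Mobp held 6 matches to ACAAAG, all printed as CTTTGT, and was the only 1 of 32851 RefSeq promoter stretches of this length with 6 or more. Opalin, Mag and Cnp held 1 each, and Mag and Cnp also held 1 match to CTGGCAC. Of all stretches, 16.5% held ACAAAG and 4.19% held CTGGCAC at least once. The stretches of Mog, Cldn11, Mal and Ugt8a held neither run of letters. A match is a description of the letters and not a measured binding site. The limit of 6 was set by the count in Mobp itself, so its rarity is a description and was not tested.

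In the pre-plaque group the myelin genes were at nearly the same level in all mice. Mbp was at 2441, 2506, 2737 and 2926 CPM in placebo-treated WT mice, at 2134, 2356, 2668 and 2738 CPM in anle138b-treated WT mice, at 2294, 2310, 2321 and 2692 CPM in placebo-treated APPPS1ΔE9 mice, and at 2279, 2406, 2514 and 2587 CPM in anle138b-treated APPPS1ΔE9 mice. The 4 groups overlapped, and the highest of the 16 mice was 1.37-fold above the lowest. Over the 9 genes this range was 1.32-fold (Cnp) to 1.75-fold (Mag).

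In the post-plaque group the same genes differed widely between mice that shared a genotype and a chow. Mbp was at 1356, 1356, 2398, 2813 and 3457 CPM in placebo-treated WT mice, at 1012, 1320, 1734, 2897 and 3169 CPM in anle138b-treated WT mice, and at 1264, 1526, 2429, 2468 and 2796 CPM in placebo-treated APPPS1ΔE9 mice. In the 7 anle138b-treated APPPS1ΔE9 mice the lowest was 1280, the median 2451 and the highest 2902 CPM. Each group held both low and high mice, and the range over the 22 mice was 3.42-fold.

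Mobp, the gene with the widest spread of the log2 values, was at 455, 462, 756, 984 and 1162 CPM in placebo-treated WT mice of the post-plaque group. It was at 316, 393, 543, 1086 and 1241 CPM in anle138b-treated WT mice and at 357, 506, 821, 829.1 and 972 CPM in placebo-treated APPPS1ΔE9 mice. In anle138b-treated APPPS1ΔE9 mice the lowest was 410, the median 863 and the highest 1242 CPM. The same mice were low as for Mbp. The range over the 10-month mice was 3.92-fold for Mobp and was narrowest, at 2.44-fold, for Ugt8a.

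**Figure D1:**
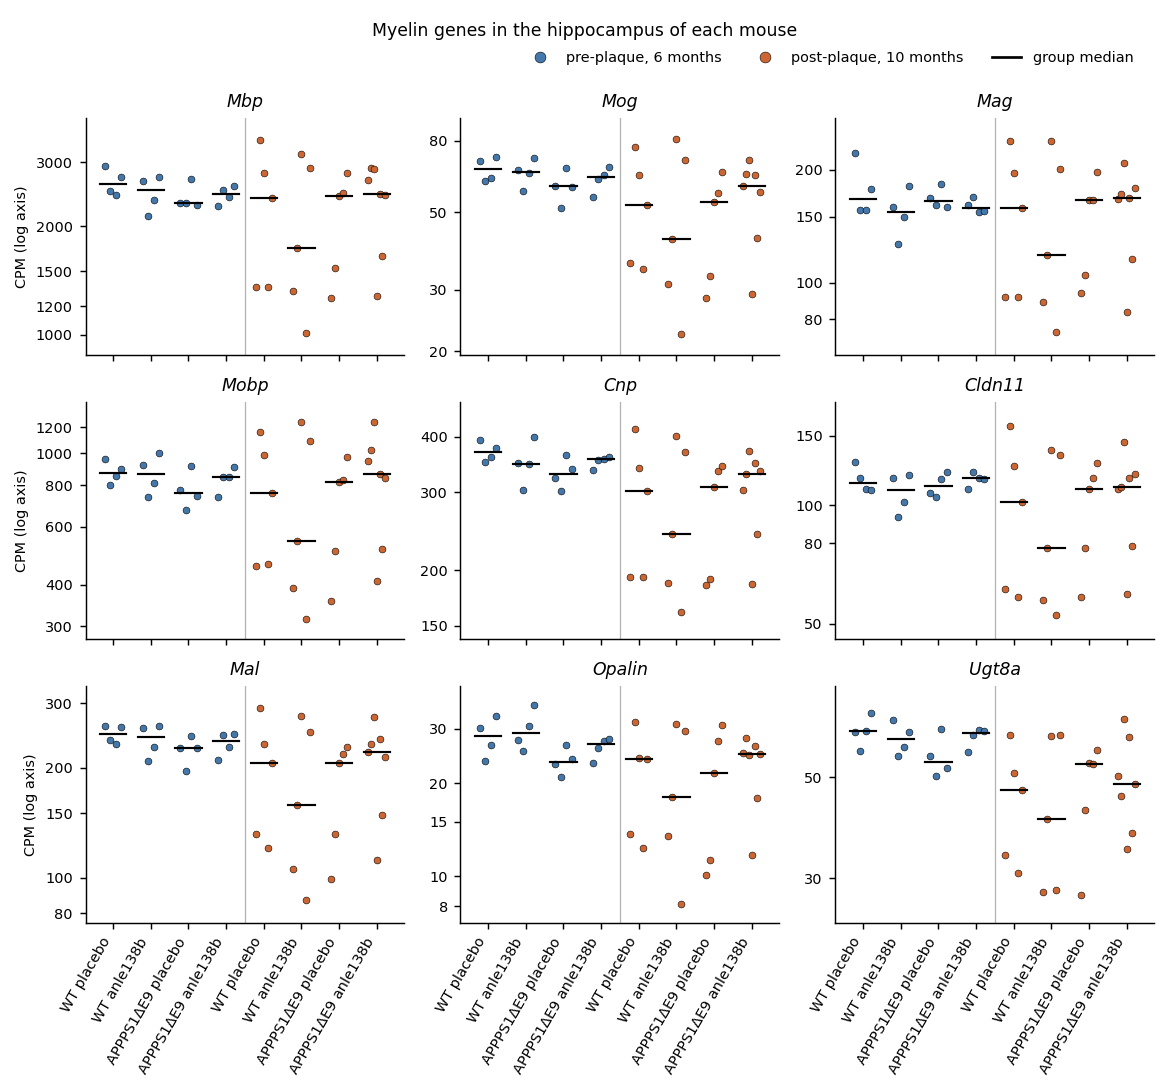
Level of each of the 9 myelin genes in CPM, on a log axis, in every mouse (points) of the 8 groups, with the group median as a bar. The 6-month mice lie close together (2134 to 2926 CPM for Mbp), while each 10-month group spans low and high mice (1012 to 3457 CPM for Mbp over the 22 mice).

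The spread was measured as the SD of log2 CPM between mice after the mean of each group was subtracted. In the 22 mice of 10 months it was 0.67 for Mobp, 0.63 for Opalin, 0.57 for Mag, Mog and Mbp, 0.56 for Mal, 0.55 for Cldn11, 0.46 for Cnp and 0.44 for Ugt8a. In the 16 mice of 6 months it was between 0.11 for Cnp and 0.18 for Opalin. The ratio of the 10-month to the 6-month SD was 3.36 for Mag to 4.68 for Cldn11, with a median of 4.32, while the median over all 18232 genes was 1.2. Among the 10149 genes with a level of 10 CPM or more, between 95.6% (Ugt8a) and 98.8% (Mobp) had a smaller SD at 10 months. At 6 months the SD of 6 of the 9 genes was below 0.15, the median over all genes. These values carry no test, because the wide spread of the 10-month mice was known when the genes were chosen.

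**Figure D2:**
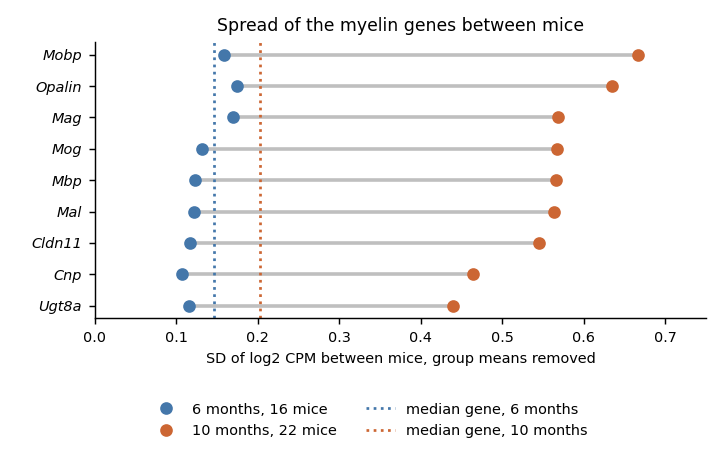
SD of log2 CPM between mice, after group means were removed, for each myelin gene at 6 months (16 mice) and 10 months (22 mice). Dotted lines are the medians over all genes, 0.15 and 0.20, and all 9 genes lie far to the right of the second line at 10 months.

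The mean of the log2 CPM of the 9 genes, called the myelin mean below, was taken as a single value for each mouse. At 10 months it fell into separate ranges, from 6.26 to 7.02 in 9 mice and from 7.39 to 7.92 in 13 mice. The empty stretch between them was 0.37 wide and the next widest gap between neighbouring mice was 0.22. At 6 months the 16 mice lay between 7.36 and 7.77, with no gap wider than 0.075. The 13 higher mice of 10 months therefore overlapped with the 6-month mice, and the 9 lower mice lay below all of them. The range between the lowest and the highest mouse was 3.15-fold at 10 months and 1.33-fold at 6 months.

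Mice below the gap were present in all 4 groups of 10 months. They were 2 of the 5 placebo-treated WT mice (replicates 1 and 4), 3 of the 5 anle138b-treated WT mice (replicates 1, 2 and 4), 2 of the 5 placebo-treated APPPS1ΔE9 mice (replicates 1 and 2) and 2 of the 7 anle138b-treated APPPS1ΔE9 mice (replicates 4 and 6). They came from all the sequencing lanes named in the titles of the 10-month libraries, with 2 of 4 mice in lane 3, 3 of 6 in lane 4, 2 of 6 in lane 5 and 2 of 6 in lane 6. Lanes and groups nearly coincide, so in the comparisons of groups a difference between lanes cannot be told apart from one between groups. In each of the 9 genes taken alone, the highest value below the gap was under the lowest value above it, for example 1734 against 2398 CPM for Mbp and 42.3 against 45.6 CPM for Ugt8a. The split was read from the values of these genes and is no group of the study, so it was not tested. In RNA from whole tissue, fewer oligodendrocytes and less RNA in each oligodendrocyte cannot be told apart.

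The depth of the libraries did not separate these mice. Total counts were 15847985 to 29878957 below the gap and 21605731 to 27273116 above it. The share of counts on mitochondrial genes was 4.25% to 4.98% below the gap and 3.99% to 4.62% above it, and the share of the 10 most abundant genes was 5.28% to 6.01% and 4.999% to 5.58%. The ranges overlapped for both shares, with the highest mice below the gap. Over the 22 mice, with group means removed, both shares were lower in mice with a higher myelin mean. For the 10 most abundant genes Pearson's r was -0.65 (two-sided permutation p = 0.00084) and Spearman's rho was -0.64 (permutation p = 0.0018), with an adjusted permutation p of 0.0084 over 10 relations of library measures and ages. For the mitochondrial share r was -0.52 (permutation p = 0.014) and rho -0.43 (permutation p = 0.048), with an adjusted permutation p of 0.046. Without the 2 mice farthest from the median of each share r was -0.58 and -0.38. Because the mice lie in separate ranges, r was also taken within them, without centring, and was -0.27 below and 0.08 above the gap for the 10 most abundant genes, and -0.18 and 0.11 for the mitochondrial share, so the relations rest on the difference between the ranges. Within lanes 4, 5 and 6 it was -0.50, -0.70 and -0.60 for the first share and -0.07, -0.70 and -0.44 for the second, and lane 3 held too few mice. Whether either share had a part in the levels of the myelin genes was not tested. Y-linked genes were at 0 to 378 CPM below the gap and at 0.15 to 405 CPM above it.

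The number of genes with at least 1 count was 23752 to 25270 below the gap and 24277 to 25087 above it. At 6 months it was lower in mice with a higher myelin mean (Pearson's r = -0.62, permutation p = 0.011, Spearman's rho = -0.60, permutation p = 0.016, n = 16, group means removed, two-sided). The adjusted permutation p was 0.046 over the same 10 relations, and the relation at 10 months had r = -0.05. Without the 2 mice farthest from the median r was -0.52, and within the lanes with 6 mice of this age, without centring, it was -0.65 and -0.53. Its part in the levels of the myelin genes was not tested.

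The 9 genes moved together. Over the 36 pairs of genes, the correlation of the group-centred log2 CPM across the 22 mice of 10 months had a median of 0.98 and a minimum of 0.90. Because these mice lie in separate ranges, the correlation was also taken within each of them, without centring. It had a median of 0.82 (0.41 to 0.95) in the 13 mice above the gap and 0.89 (0.56 to 0.98) in the 9 mice below it. In the 16 mice of 6 months, where the spread was small, the median was 0.78 (0.41 to 0.93). Opalin and Ugt8a followed the mean of the other 8 genes least closely above the gap (r = 0.68 and 0.70), and Mog most closely (r = 0.97). All values of a mouse come from a single library, which these correlations share.

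The genes did not move by the same amount. For each step of 1 in the myelin mean, log2 CPM changed by 1.2 for Mobp and 1.12 for Opalin, by 0.98 to 1.03 for Mag, Mog, Mal, Mbp and Cldn11, by 0.84 for Cnp and by 0.77 for Ugt8a. The basic protein Mobp and the mature oligodendrocyte protein Opalin were thus the steepest, and the enzymes Cnp and Ugt8a the shallowest.

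Other genes that followed the myelin genes were looked for among the 18223 other genes that passed the filter. A gene was counted as following when its correlation with the myelin mean over the 22 mice of 10 months was 0.8 or higher after group means were removed. There were 1394 such genes (7.65%), and 1633 genes (8.96%) had a correlation of -0.8 or lower. In the 16 mice of 6 months the counts were 60 and 17. Within the 13 mice above the gap 70 genes reached 0.8 and within the 9 mice below it 261, and 10 genes did so in both of these and in the 6-month mice. For most of the 1394 genes, the correlation over the 22 mice was thus higher than within either range of mice. The first principal component of the 10140 other genes at 10 CPM or more was taken without removing group means. It took 58.5% of the variance between the 10-month mice. Its correlation with the myelin mean, also not centred, had a size of 0.957 by Pearson's r and 0.80 by Spearman's rho. At 6 months the component took 26.5%, and its Pearson correlation with the myelin mean had a size of 0.085.

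The 20 genes with the highest correlation (0.979 or higher) included Tmem88b, Myrf, Tnfaip6, Sec14l5, Tmem63a, Galnt6, Ube2d1, Prr18, Fa2h, Litaf, Myo1d, Plekhh1, C030029H02Rik, Gpr37, Tspan2, Pde8a, Spg20, Ttyh2 and Arhgef10. Fa2h makes the hydroxylated fatty acids of myelin galactolipids (16.8 to 25.1 CPM in the 9 mice below the gap, 31.6 to 48.3 CPM in the 13 above it and 29.01 to 42.2 CPM at 6 months), and Gpr37 is a receptor of maturing oligodendrocytes (50.8 to 77.1, 90.0 to 116 and 81.7 to 113 CPM in the same order). Within these sets the correlation of Fa2h with the myelin mean was 0.88, 0.89 and 0.83. Of the 20 genes, 8 were on the lists of myelin and lipid genes and of oligodendrocyte regulators. In the 6-month mice, which were not used to pick them, the correlation of the 20 genes with the myelin mean had a median of 0.71 (0.41 to 0.92), against a median of -0.02 over all genes.

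In all, 28 genes followed at both ages. With the values at 10 and at 6 months, those highest at 6 months were Gjb1 (r = 0.98 and 0.96), a gap junction protein of myelinating glia, Bcas1 (0.96 and 0.92), a protein of myelinating oligodendrocytes, Prr18 (0.98 and 0.92), Qdpr (0.98 and 0.91), Cmtm5 (0.95 and 0.91), Gatm (0.98 and 0.91) and Tspan2 (0.98 and 0.91). Fa2h, Ermn, Evi2a, Gjc3, Gpr37, Plekhb1, Tmem88b and Tmem125 were among the others.

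The other myelin proteins and lipid enzymes followed as a group. Of 45 listed genes, 35 reached a correlation of 0.8 at 10 months, with a median of 0.95, against 7.65% of all genes. At 6 months 14 of them did so, with a median of 0.67, against 0.33% of all genes. Within the 13 higher and the 9 lower mice of 10 months the median was 0.73 and 0.67. Over all mice of 10 months Tmem88b and Galnt6 were among the highest, and the lowest were Gal3st1 (0.57), Gamt (0.23) and Efnb3 (-0.31). Gal3st1 is the enzyme that adds sulfate to the galactolipid made by Ugt8a, and its correlation at 6 months was 0.74.

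Of 9 regulators of oligodendrocytes, 4 followed, against 7.65% of all genes. Myrf, the factor that drives the myelin genes in maturing cells, was at 40.5 to 63.4 CPM below the gap, 68.4 to 98.7 CPM above it and 53.6 to 73.3 CPM at 6 months, and its correlation was 0.99 at 10 months, 0.95 and 0.94 within the lower and the higher mice, and 0.61 at 6 months. Zfp536 (0.96), Sox10 (0.94) and Nkx6-2 (0.88) followed at 10 months, and their correlations within the 13 higher mice were 0.56, 0.57 and 0.24. Sox10 was at 23.6 to 32.4 CPM below the gap and 34.1 to 51.9 CPM above it. Olig1 (0.45), Olig2 (0.26) and Zfp488 (0.17), which are also factors of the lineage, did not. Olig2 was at 14.8 to 21.7 CPM below the gap and at 14.2 to 22.2 CPM above it, so that its ranges coincided while those of Mbp did not overlap.

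Genes of oligodendrocyte precursors did not follow. The median correlation of 10 listed genes was -0.14, with Enpp6 (0.75) and Vcan (0.70) highest, and Pdgfra (-0.81) and Lhfpl3 (-0.85) lowest. Pdgfra, the growth factor receptor that marks precursors, was at 54.9 to 78.8 CPM below the gap and 44.5 to 62.7 CPM above it. The summed level of the 10 genes was 461 to 591 CPM and 452 to 548 CPM and so overlapped.

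Genes of cholesterol synthesis, whose product is a main lipid of myelin, went the other way at 10 months. Of 14 listed genes 9 had a correlation of -0.8 or lower and none was above -0.42, with Sqle (-0.89) and Fdft1 (-0.89) among the lowest, against 8.96% of all genes. Their summed level was 852 to 1177 CPM below the gap and 602 to 909 CPM above it. Within the 13 higher and the 9 lower mice the median correlation was -0.16 and -0.22, and at 6 months it was 0.04.

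**Figure D3:**
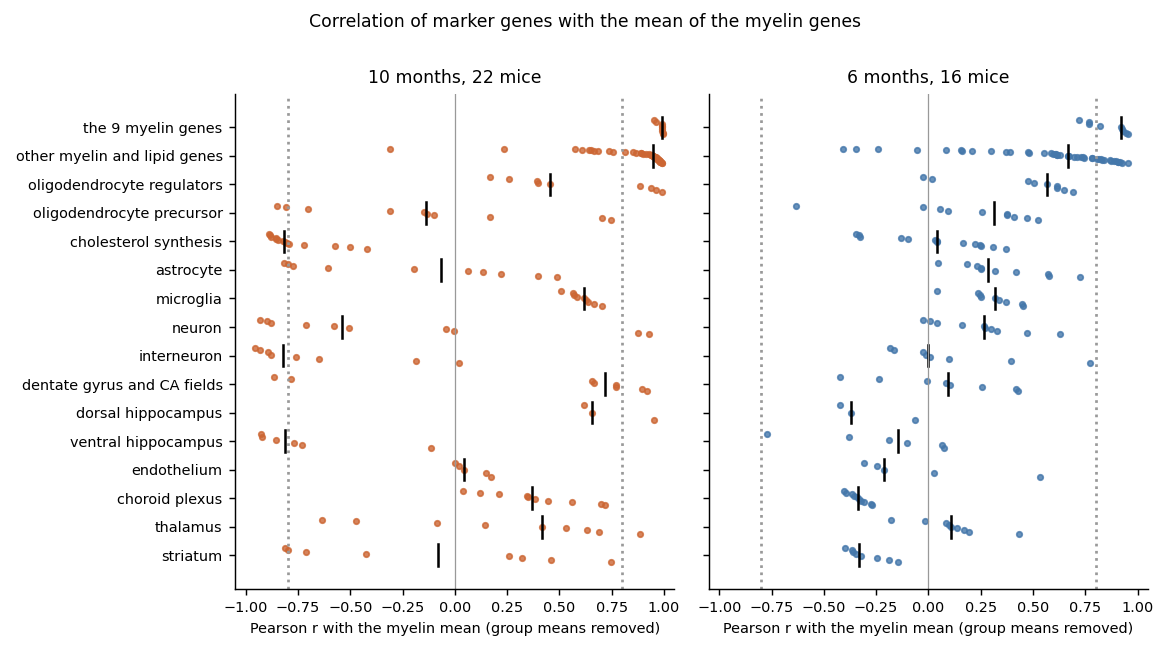
Pearson correlation of each listed gene with the myelin mean after group means were removed, at 10 months (left, 22 mice) and 6 months (right, 16 mice), with the median of each list as a bar and dotted lines at -0.8 and 0.8. At 10 months the other myelin genes lie near 1 (median 0.95) and cholesterol synthesis and interneuron genes near -0.8 (median -0.82 for each), while at 6 months the other myelin genes have a median of 0.67 and cholesterol synthesis genes one of 0.04.

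Some genes of hippocampal neurons and fields also moved with or against the myelin genes at 10 months. Camk2a, the kinase of excitatory neurons, was at 3307 to 4730 CPM below the gap and 4650 to 6115 CPM above it (r = 0.93, with 0.94 within the lower and 0.07 within the higher mice). Gad1, the enzyme that makes GABA in inhibitory neurons, was at 340 to 417 CPM and 280 to 334 CPM (r = -0.93, with -0.53 and -0.01). Of 10 neuronal genes 2 followed and 3 went the other way, where 7.65% and 8.96% of all genes did so. Of 8 interneuron genes, a list added after the values were seen, 4 went the other way, with Lhx6 (-0.96), Gad1 and Vip (-0.89) lowest. Of 8 genes of the dentate gyrus and the CA fields 2 followed and 1 went the other way, against the same shares of all genes. Their median correlation was 0.72, with 0.10 within the lower and 0.0035 within the higher mice. Prox1 and Dsp, which mark granule cells of the dentate gyrus, followed (0.92 and 0.90), while Mpped1 (-0.87) and Fibcd1 (-0.78) were lowest. Dsp was at 3.97 to 43.4 CPM below the gap and 73.1 to 160 CPM above it.

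Markers of the dorsal and the ventral hippocampus differed in level between these mice as well. These lists were also added after the values were seen and are a description only. Lct, a gene of the dorsal hippocampus (r = 0.95, with 0.77 within the lower and 0.12 within the higher mice), was at 2.61 to 22.5 CPM in the 9 mice below the gap and at 77.9 to 142 CPM in the 13 above it, with the 6-month mice between these ranges at 39.3 to 63.4 CPM. Trhr, a gene of the ventral hippocampus (r = -0.93, with -0.75 and -0.21), was at 7.46 to 20.6 CPM below the gap and at 0.63 to 5.43 CPM above it, and at 6.94 to 15.1 CPM at 6 months. The ranges of Htr2c were 60.8 to 94.5, 7.88 to 64.7 and 52.4 to 123 CPM in the same order. The summed level of the 3 dorsal genes (Lct, Wfs1 and Gsg1l) was 82.1 to 169 CPM below the gap and 225 to 388 CPM above it, without overlap, and 182 to 246 CPM at 6 months. That of the 6 ventral genes (Trhr, Htr2c, Nr2f2, Dcn, Gpc3 and Coch) was 133 to 366, 27.9 to 195 and 144 to 299 CPM. None of these 9 genes was at 0 in any mouse. Their part in the spread of the myelin genes was not tested.

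**Figure D4:**
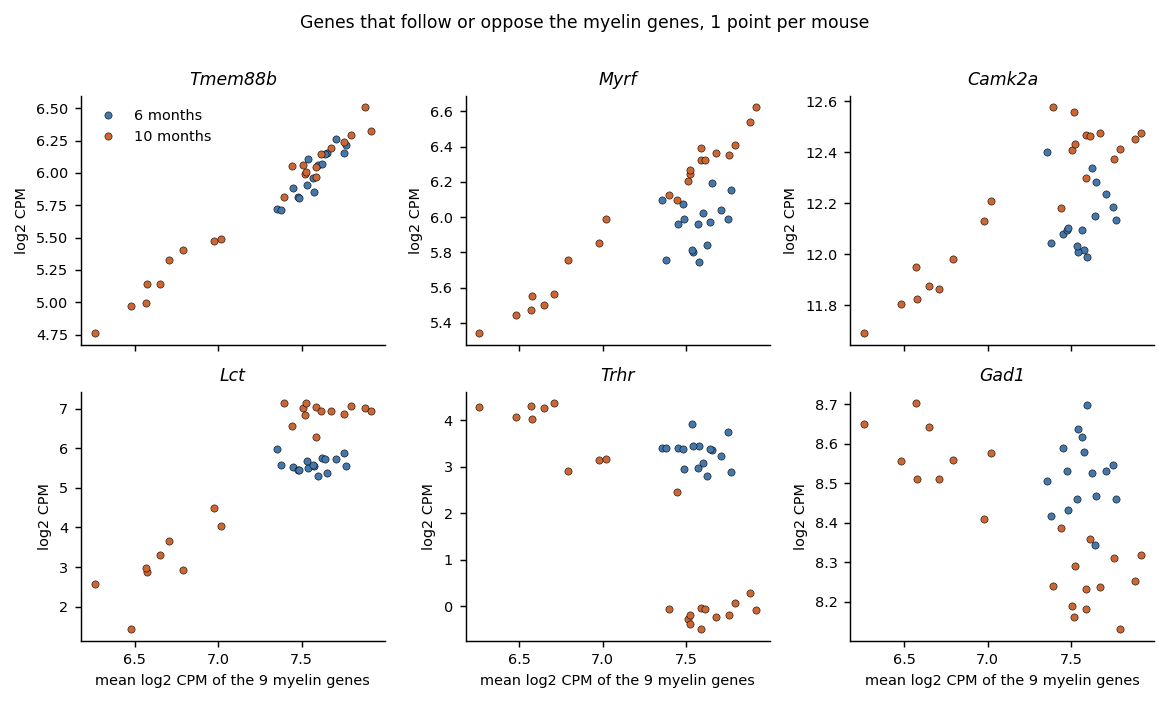
Level of 6 genes (log2 CPM) against the mean log2 CPM of the 9 myelin genes, with 1 point for each mouse of 6 or 10 months. Tmem88b and Myrf rise along the whole range of the 10-month mice, while Camk2a, Lct, Trhr and Gad1 differ between the 9 lower and the 13 higher mice (Lct 2.61 to 22.5 against 77.9 to 142 CPM) and have correlations of -0.21 to 0.12 within the higher ones.

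The genes with the lowest correlation (-0.95 to -0.98) were Fchsd2, Zfp941, Ocrl, Armcx4, Usp35, Krt77, Srrm4, Oprl1, Lhx6 and AU022754. Ocrl is a phosphoinositide phosphatase, Srrm4 a splicing factor of neurons and Oprl1 the nociceptin receptor, which was at 63.0 to 77.9 CPM below the gap and 36.6 to 47.0 CPM above it. Their correlations in the 6-month mice had a median of -0.13 (-0.61 to 0.49), and the difference between the ages was not tested.

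Genes of the other cell types and regions followed less closely. The median correlation at 10 months was 0.04 for 5 endothelial genes, -0.07 for 10 astrocyte genes, -0.08 for 8 genes of the striatum and -0.04 for the 4 Y-linked genes. It was 0.62 for 9 microglia genes, none of which reached 0.8, and 0.22 for 9 genes of plaque-associated microglia. It was 0.37 for 10 choroid plexus genes and 0.42 for 9 genes of the thalamus, of which only Prkcd (0.89) followed, against 7.65% of all genes. Within the higher and the lower mice the median was -0.10 and 0.15 for the microglia genes and -0.30 and 0.09 for those of plaque-associated microglia. For the choroid plexus genes it was 0.20 and -0.30, and for the thalamus genes 0.03 and -0.11. The summed choroid plexus genes were at 36.9 to 142 CPM below the gap and 59.2 to 4462 CPM above it, and the thalamus genes at 77.9 to 121 and 114 to 188 CPM. Their part was not tested.

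The question of the study, whether the genotype or anle138b changed gene expression, was put to the myelin genes with edgeR's quasi-likelihood test between pairs of groups, with a gene called at a Benjamini-Hochberg adjusted p under 0.1 over all genes tested. In none of the 8 comparisons within a cohort was any of the 9 genes called, with edgeR or with DESeq2. At an unadjusted p under 0.05, edgeR gave 3 of the 9 genes in the comparison of placebo-treated APPPS1ΔE9 with WT mice of the pre-plaque group and 0 in the other 7. At that p, 11.1% of all genes stood in that comparison, 5.64% between the genotypes with anle138b, 13.1% between the chows in APPPS1ΔE9 mice and 1.85% between the chows in WT mice of the pre-plaque group, and 4.1%, 5.78%, 1.48% and 1.25% in the post-plaque group. The share of all genes called was 0.0715% in the first of these, 0.047% between the genotypes with anle138b, 0.0529% between the chows in APPPS1ΔE9 mice and 0% between the chows in WT mice. In the post-plaque group it was 0.324%, 0.723%, 0% and 0% in the same order. The comparisons share groups of mice and are not independent of each other.

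In the pre-plaque group all 9 genes were lower in placebo-treated APPPS1ΔE9 than in placebo-treated WT mice, by small amounts that did not pass the test. The log2 fold change was -0.26 ± 0.11 (SE) for Opalin, -0.19 ± 0.08 for Ugt8a and -0.16 ± 0.07 for Cnp, with adjusted p = 0.41, 0.43 and 0.43 in edgeR's test. It was smallest for Cldn11 (-0.05 ± 0.07). Opalin was at 20.9, 22.98, 23.9 and 26.6 CPM in placebo-treated APPPS1ΔE9 mice and at 23.6, 26.6, 30.1 and 32.8 CPM in placebo-treated WT mice, and the groups overlapped. The 45 other myelin and lipid genes had a median of -0.11 with 0 genes called, and the 9 genes one of -0.16, against 0.0023 over all genes. The sum of the choroid plexus genes varied widely within both groups, from 70.4 to 6848 CPM in the APPPS1ΔE9 and from 198 to 7868 CPM in the WT mice. Of these 10 genes 0 were called. The Y-linked genes were low in 0 of the 4 APPPS1ΔE9 and in 3 of the 4 WT mice. With the Y-linked level as a covariate the change of Mag became 0.08 and that of Cldn11 0.01.

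With anle138b, 5 of the 9 genes were lower and 4 higher in APPPS1ΔE9 than in WT mice of the pre-plaque group, from -0.19 for Opalin to 0.11 for Cldn11. Between anle138b and placebo the changes were -0.07 to 0.15 in APPPS1ΔE9 mice and -0.20 to 0.08 in WT mice. The 95% intervals of these 3 comparisons reached from -0.48 to 0.33 at most.

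In the post-plaque group the intervals were much wider. Between placebo-treated APPPS1ΔE9 and WT mice the log2 fold changes were -0.16 (Mog) to 0.05 (Ugt8a), with SE of 0.24 to 0.36. With the Y-linked level as a covariate their median moved from -0.10 to -0.43, again with no gene called. With anle138b all 9 genes were higher in APPPS1ΔE9 than in WT mice, by 0.11 to 0.22 (SE 0.24 to 0.37). Anle138b against placebo gave 0.08 to 0.26 in APPPS1ΔE9 mice (SE 0.20 to 0.29) and -0.17 to -0.03 in WT mice (SE 0.28 to 0.42). The adjusted p was 0.87 or higher in all 4 comparisons. The 95% intervals reached from -0.92 to 0.94, so that changes up to these sizes were within the error of these groups. The median SE of the 9 genes was 0.24 to 0.36 in the 4 comparisons at 10 months and 0.07 to 0.08 in those at 6 months.

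**Figure D5:**
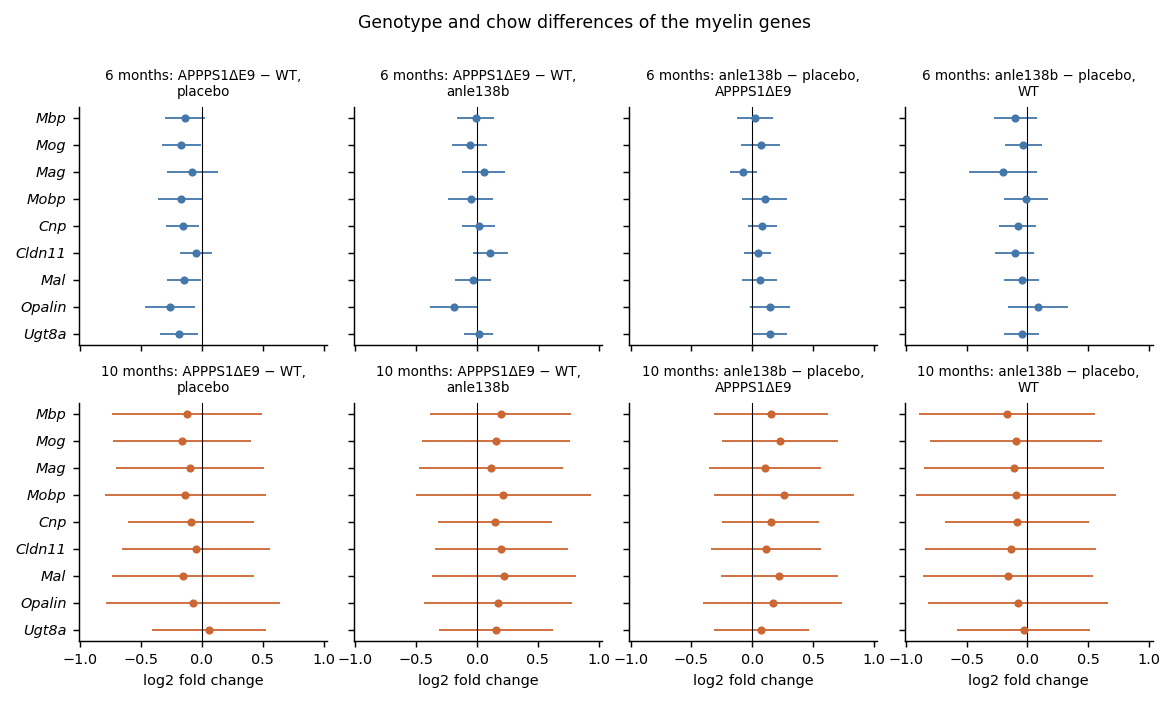
Log2 fold change of each myelin gene (points) with its approximate 95% interval (lines) in the 4 comparisons of genotype and chow at 6 months (top) and at 10 months (bottom). No gene was called in any panel, and the intervals at 10 months, which reach from -0.92 to 0.94, are wider than those at 6 months, which reach from -0.48 to 0.33.

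The difference between comparisons was tested as well, in fits over 4 or 8 groups that were chosen after the data were seen. The interaction of genotype and chow was 0.08 to 0.20 at 6 months and 0.10 to 0.38 at 10 months over the 9 genes, and the change of the genotype effect from 6 to 10 months was -0.01 to 0.25 with placebo and 0.07 to 0.37 with anle138b. None of these was called (lowest adjusted p = 0.64 in edgeR's test), with 0%, 0%, 0% and 0.159% of all genes called.

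By the myelin mean, the 6-month groups stood highest, in the order WT on placebo (7.64 ± 0.11, SD, n = 4), WT on anle138b (7.58 ± 0.16, n = 4), APPPS1ΔE9 on anle138b (7.56 ± 0.08, n = 4) and APPPS1ΔE9 on placebo (7.49 ± 0.12, n = 4). The 10-month groups followed in the order APPPS1ΔE9 on anle138b (7.36 ± 0.43, n = 7), WT on placebo (7.26 ± 0.56, n = 5), APPPS1ΔE9 on placebo (7.18 ± 0.52, n = 5) and WT on anle138b (7.10 ± 0.71, n = 5). In none of the 7 steps of this order did neighbours differ by more than the larger of their SDs. For the single genes this was so in 61 of 63 steps.

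Between the ages, all 9 genes had lower means in the 10-month groups (median log2 fold change -0.30, against -0.02 over all genes). In a fit over the 38 mice, with the mean of the 4 groups of each age compared, edgeR called 5 of the 9 lower, where 32.1% of all genes were called lower and 61.8% were called in either direction. On the log2 scale the mean of Ugt8a was lower by 0.38 ± 0.11 (SE, adjusted p = 0.0036), of Opalin by 0.35 ± 0.15 (0.049) and of Mal by 0.32 ± 0.14 (0.047). That of Mog was lower by 0.31 ± 0.14 (0.06) and that of Cnp by 0.30 ± 0.11 (0.024). The log2 fold changes of Mbp (-0.19), Cldn11 (-0.19), Mobp (-0.16) and Mag (-0.13) did not pass the test. In the 9 mice below the gap each of the 9 genes was under its lowest 6-month value. In the 13 mice above it the median was over the 6-month median for Mbp (2796 against 2474 CPM), Mobp, Mag, Cldn11 and Mog. It was under the 6-month median for Cnp, Mal, Opalin and Ugt8a (53.8 against 62.5 CPM for Ugt8a). This split was not tested. Of the 45 other myelin and lipid genes 25 were called lower and 3 higher, where 29.7% of all genes were called higher. The mice of the ages were treated and sampled as separate cohorts, so age and cohort cannot be told apart, and without the filter on low counts only Ugt8a and Cnp of the 9 remained called.

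Genes of the choroid plexus and the thalamus also differed in level between the ages. All 10 choroid plexus genes were called lower at 10 months, where 32.1% of all genes were. Their sum was 36.9 to 4462 CPM at 10 months and 70.4 to 8135 CPM at 6 months, and the ranges overlapped. Among the 9 genes of the thalamus 6 were called lower, Slc17a6 and Shox2 among them, against the same share. Calls of lower genes were not limited to these tissues, as 8 of 10 astrocyte genes were also called lower and 1 higher. The sizes of the changes differed. The median log2 fold change was -3.9 for the choroid plexus genes, -0.57 for the thalamus genes and -0.18 for the astrocyte genes. The part of these tissues in the level of the myelin genes was not tested.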

How the data were processed

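Hippocampal RNA of 38 mice was sequenced from TruSeq mRNA libraries. The authors mapped the reads to mm10 with STAR 2.3.0 and counted them on genes with HTSeq, and the deposited values are read counts of 48709 genes in each mouse, with no normalization. Which annotation was counted, and whether strand was used, are not given in the sources used here. Symbols came from GENCODE M21 (48349 genes matched). Groups and replicate numbers came from the sample titles.

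Genes that passed filterByExpr (minimum count 10, total 15) were scaled by TMM, and each pair of groups was tested in a quasi-likelihood fit of edgeR 4.0.16 (R 4.3.3). The SE is the log2 fold change over the square root of F, and 95% intervals are 1.96 SE. Levels are CPM on TMM library sizes, with a prior count of 2 on the log2 scale. Depth was 15847985 to 31895808 counts, and no 2 libraries of a group agreed within counting error (chi-square over degrees of freedom 3.02 or more in 75 pairs).

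The genes and the marker lists were chosen with earlier results of these data known. The text names the 9 genes, the 20 and the 10 genes with the highest and lowest correlation, and up to 3 genes at each end of a list. Some genes within this rule are not reported here. The lists of the dorsal and ventral hippocampus and of interneurons were added after seeing the data.

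Alternatives were DESeq2 1.42.0, RLE size factors, no filter, an adjusted p under 0.05, a Y-linked covariate, all groups in a fit, the replicate number as a block, another prior count, centring or threshold for the correlation, and each mouse left out. On simulated counts of the pre-plaque genotype comparison with placebo (16774 genes), edgeR found 194 of 200 changed genes with 18 false calls and DESeq2 196 with 48. In that of the post-plaque group with anle138b (17151 genes) edgeR found 182 with 14 and DESeq2 193 with 74.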

Additional observations from a re-analysis of the deposited data

Results flagged for a closer look

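In a single case of 80 combinations of a gene or the myelin mean with a group, a mouse stood far from the others of its group. Mbp in replicate 3 of the APPPS1ΔE9 mice on placebo at 6 months was at 11.394 log2 CPM, with the next mouse at 11.181, a gap of 0.927 of the range of the 4 mice. A case of this kind can arise by chance, and the 80 combinations are not independent, because the genes moved together. In the 10-month groups, where the spread was widest, no mouse was set apart in this way, since each group held several low and several high mice.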

How the results depend on the processing

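The count of the 9 genes called was 0 in all 8 comparisons within a cohort under each alternative run, including each mouse left out. Between the ages it was 5, and 2 without the filter on low counts, where Mog (-0.30, adjusted p = 0.13), Mal (-0.31, 0.10) and Opalin (-0.35, 0.11) were no longer called. The cause was not tested. The replicate numbers did not pair the mice (no comparison had a correlation over 0.1 in every pair). With the number as a replicate block none of the 9 genes was called, and only Cldn11 between the genotypes with placebo at 10 months changed sign (0.0040). The SD of the myelin mean was 0.36 in place of 0.55, and 999 genes followed. This SD made no allowance for the replicate means removed. Replicates 6 and 7, which only the anle138b-treated APPPS1ΔE9 group held, were left without spread, so the values 0.36 and 0.55 are not directly comparable. With the Y-linked covariate, changes that were not called took the opposite sign: between the genotypes with placebo Mag (0.080) and Cldn11 (0.0068) at 6 months and Ugt8a (-0.21) at 10 months, between the genotypes with anle138b at 6 months Mbp (0.11), Mog (0.020), Mobp (0.096) and Mal (0.082), and between the chows Mobp in WT mice at 6 months (0.023) and Ugt8a in APPPS1ΔE9 mice at 10 months (-0.023). The 1394 genes that followed became 2316 at a correlation of 0.7, and, in sets chosen after seeing the data, 70 in the 13 higher mice, 261 in the 9 lower mice and 60 in the 6-month mice. They were between 1303 and 1507 with each mouse left out, and the SD of the myelin mean was then 0.52 to 0.57.

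With a mouse left out, log2 fold changes that were not called crossed 0. At 6 months they were -0.14 to 0.038 for Mag and -0.086 to 0.0032 for Cldn11 between the genotypes with placebo, and with anle138b -0.077 to 0.040 for Mbp, -0.12 to 0.024 for Mobp, -0.092 to 0.012 for Mal, -0.027 to 0.056 for Ugt8a, -0.028 to 0.14 for Mag and -0.049 to 0.080 for Cnp. Between the chows in WT mice they were -0.087 to 0.018 for Mog, -0.093 to 0.053 for Mobp, -0.094 to 0.010 for Mal, -0.021 to 0.16 for Opalin and -0.095 to 0.0014 for Ugt8a. At 10 months they were, between the genotypes with placebo, -0.055 to 0.20 for Ugt8a, -0.27 to 0.076 for Mbp, -0.24 to 0.11 for Mag, -0.29 to 0.064 for Mobp, -0.21 to 0.079 for Cnp, -0.20 to 0.17 for Cldn11, -0.28 to 0.11 for Opalin, -0.31 to 0.012 for Mog and -0.29 to 0.031 for Mal. With anle138b they were -0.052 to 0.37 for Mag, -0.026 to 0.41 for Mog and -0.029 to 0.39 for Opalin. Between the chows they were, in APPPS1ΔE9 mice, -0.068 to 0.16 for Ugt8a, -0.018 to 0.24 for Mag, -0.028 to 0.23 for Cldn11 and -0.0047 to 0.37 for Opalin, and in WT mice -0.35 to 0.092 for Mog, -0.37 to 0.10 for Mag, -0.39 to 0.11 for Mobp, -0.27 to 0.086 for Cnp, -0.30 to 0.12 for Opalin, -0.18 to 0.12 for Ugt8a, -0.39 to 0.036 for Mbp, -0.33 to 0.087 for Cldn11 and -0.38 to 0.030 for Mal.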
